A study of Mus musculus with 2 samples.

Results

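The Kcn genes of the mouse encode the subunits of potassium channels, and their levels were described in the adult heart. A gene was taken as a member when its symbol began with Kcn followed by a lower-case letter and at least 1 of its transcripts was annotated as protein-coding. This gave 94 members among 55536 mouse genes, of which 21901 had a protein-coding transcript. Total RNA had been sequenced from the heart of 2 male B6CASTF1/J mice aged 8 to 10 months, with 1 library per animal and 300 ng of RNA in each. The B6CASTF1/J mouse is an F1 hybrid that carries 1 genome copy from C57BL/6J and 1 from CAST, and the labels list no engineered allele and no treatment. Replicate 2 was prepared from animal 4 and replicate 1 from animal 2, although the labels give both the same donor entry. No other condition, sex, age or tissue was included, so there is no contrast between conditions, and with 1 library per animal no test of a difference was possible.

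Potassium channels let potassium ions leave the cell and so end the action potential, hold the resting voltage, or tie excitability to metabolism and to calcium. Pore-forming subunits assemble around a central pore whose narrowest stretch, the selectivity filter, picks potassium over sodium, and auxiliary subunits change how the pore opens or reaches the membrane. Mouse ventricular muscle repolarises mainly through fast voltage-gated currents, whereas larger mammals rely more on the rapid and slow delayed rectifiers.

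The selectivity filter is the feature that the pore-forming members share. Its coding sequence is shown for members that carried the main currents described here. The members were chosen by the names of potassium channel genes, so finding the filter in them is no independent result. The pattern searched, in frame, was 5 codons for threonine or serine, any residue, glycine, tyrosine or phenylalanine, and glycine, with leucine also accepted at the fourth place in the Kcnk subfamily. Each line gives 39 bases of the leading transcript, 5′ to 3′ on the coding strand, with the 15 bases of the pattern in capitals.
Kcnk3, the later of its 2 filters: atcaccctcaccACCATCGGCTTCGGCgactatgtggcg
Kcnj11: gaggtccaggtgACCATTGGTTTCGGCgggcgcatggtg
Kcnj8: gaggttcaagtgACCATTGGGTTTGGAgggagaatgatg
Kcnj3: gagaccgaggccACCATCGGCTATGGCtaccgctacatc
Kcnj5: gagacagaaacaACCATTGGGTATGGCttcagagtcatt
Kcnj2: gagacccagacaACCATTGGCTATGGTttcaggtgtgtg
Kcna5: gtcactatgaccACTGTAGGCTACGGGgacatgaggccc
Kcnh2: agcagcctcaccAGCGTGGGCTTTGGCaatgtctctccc

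These windows lie within coding exons of the mm10 assembly, at chr5:30622190-30622228 on the plus strand for Kcnk3 and chr7:46099484-46099522 on the minus strand for Kcnj11. The Kcnj8 window lies at chr6:142566436-142566474 on the minus strand, Kcnj3 at chr2:55437615-55437653 on the plus strand and Kcnj5 at chr9:32322547-32322585 on the minus strand. Kcnj2 was read from chr11:111072195-111072233 on the plus strand, Kcna5 from chr6:126533733-126533771 on the minus strand and Kcnh2 from chr5:24325543-24325581 on the minus strand. The sequences come from GENCODE M21 transcripts, not from the reads of these animals.

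Of 77 pore-forming members, 64 held the pattern once in their leading transcript, 12 held it in 2 places, and 1, Kcnu1, did not hold it in its leading transcript. The 12 with 2 copies belonged to the Kcnk subfamily of 14, whose subunits carry a pair of pore loops each. In 3 of them (Kcnk1, Kcnk6 and Kcnk7) 1 copy was found only through the leucine form, and 9 had 2 copies under the rule used for all other members. The limit of leucine to Kcnk was set after the matches were seen, since accepting it in all members gave 1 further match each in Kcnh2 and Kcna6. None of the 17 auxiliary and regulatory members held it. Among 21767 genes with a whole coding sequence, 572 (2.63%) held the pattern without the leucine form in their longest one. By that rule, which differs from the leading transcript used above, 77 of the 94 members held it. These 77 are included in the 572. The fourth codon read tyrosine in 51 of the 64 members with 1 copy and phenylalanine in 13. Those with tyrosine summed to 186.0 TPM on average, and those with phenylalanine to 78.8 TPM. TPM is the share of transcript molecules, corrected for length and scaled to the same total in every library. The windows of Kcnj11 and Kcnj8 shared 31 of 39 bases, and those of Kcnj3 and Kcnj5 shared 27.

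Mouse genes received 39.98 M expected counts in replicate 2 and 42.05 M in replicate 1. Heart muscle markers were high in both, since the 5 genes Myh6, Actn2, Tnnt2, Ryr2 and Tnni3 summed to 14967 TPM in replicate 2 and 13740 TPM in replicate 1. The 4 atrial markers Nppa, Sln, Myl7 and Myl4 summed to 1080 TPM in replicate 2 and 926 TPM in replicate 1, and 3 ventricular markers to 12494 TPM in replicate 2 and 11519 TPM in replicate 1. Markers of both chambers were thus present, and levels are averages over them. In bulk tissue, fewer cells of a type and less RNA per cell cannot be told apart. The 4 red blood cell markers summed to 6294 TPM in replicate 2 and 11616 TPM in replicate 1.

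A small part of the family was read in the heart. Taking 1 TPM or more in both libraries as read, 20 of 94 members (21.3%) were read, against 49.1% of all genes with a protein-coding transcript. The median member stood at 0.163 TPM, against 1.06 TPM over all those genes. A further 33 members had a mean of 0.1 TPM or more without passing in both libraries, and 6 of these passed in 1 library only, among them Kcnab2, Kcne1, Kcnt2, Kcnn3 and Kcnk2. Another 29 had reads but a mean under 0.1 TPM, and 12 had no count in either library. For those 12, a count of 0 allows a level of up to 0.00707 to 0.137 TPM, taking 3 counts as the limit, which covers counting error only. They were Kcna10, Kcne2, Kcng1, Kcnh4, Kcnj13, Kcnk7, Kcnk9, Kcnk15, Kcnk16, Kcnk18, Kcns2 and Kcnv1.

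All members together summed to 453.6 TPM in replicate 2 and 409.7 TPM in replicate 1, a mean of 431.7 ± 31.0 TPM (SD, n = 2). Their expected counts summed to 47906 in replicate 2 and 45839 in replicate 1, which was 0.120% of the counts on mouse genes in replicate 2 and 0.109% in replicate 1. The level was concentrated in few genes: Kcnk3 alone held 22.1% of the summed TPM, the highest 4 members held 60.2% and the highest 8 held 79.6%. Auxiliary members made up 15.9% of the sum, nearly all of it from Kcnip2.

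**Figure D1:**
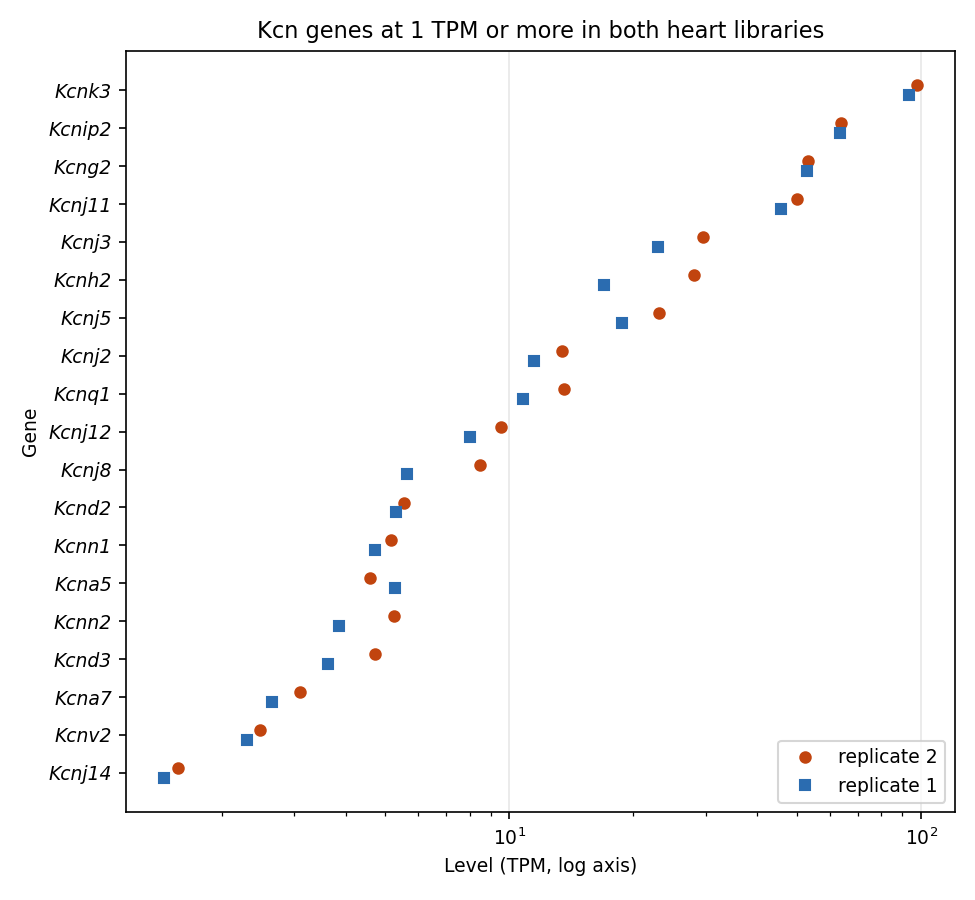
Level of 19 of the 20 Kcn genes at 1 TPM or more in both libraries, on a log TPM axis, with circles for replicate 2 and squares for replicate 1. The 4 genes at the top, Kcnk3, Kcnip2, Kcng2 and Kcnj11, lie above 45 TPM in both animals, and Kcnh2 shows the widest gap between the animals.

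Kcnk3 was the most abundant member. It encodes an acid-sensitive tandem-pore channel that carries background current and helps to set the resting voltage. It stood at 97.66 TPM in replicate 2 and 93.38 TPM in replicate 1 (mean 95.5 ± 3.03, SD, n = 2), from 10780 expected counts in replicate 2 and 10878 in replicate 1. The gene (ENSMUSG00000049265.7) lies at chr5:30588170-30625271 on the plus strand. Kcnk3 made up 97.3% of the summed level of the 14 Kcnk members, of which 13 were not read in both libraries and 5 had no count. Kcnk2, a stretch-sensitive tandem-pore channel, stood at 0.97 TPM in replicate 2 and 1.01 TPM in replicate 1. The level of Kcnk3 per length was 96.5-fold that of Kcnk2. Kcnk6 (mean 0.67 TPM) and Kcnk1 (mean 0.55 TPM) were the next in this subfamily.

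The fast transient outward current was represented by its auxiliary subunit far above its pores. Kcnip2 encodes a cytosolic calcium-binding subunit that increases the surface density of Kcnd channels and alters their gating. It stood at 63.82 TPM in replicate 2 and 63.51 TPM in replicate 1 (mean 63.7 ± 0.219, SD, n = 2). The gene (ENSMUSG00000025221.15) lies at chr19:45791839-45816061 on the minus strand. Its pore-forming partner Kcnd2 stood at 5.55 TPM in replicate 2 and 5.30 TPM in replicate 1. Kcnd3, the other main pore of this current, stood at 4.72 TPM in replicate 2 and 3.62 TPM in replicate 1. Neither gap between Kcnip2 and a pore gene was near the spread between animals: Kcnip2 was 11.7-fold above Kcnd2 (log2 3.55 ± 0.04, SD, n = 2) and 15.4-fold above Kcnd3 (log2 3.95 ± 0.27). Kcnd2 was above Kcnd3 in both libraries by a log2 ratio of 0.39 ± 0.22. The third pore gene, Kcnd1, had a mean of 0.165 TPM, and the other auxiliary genes of the Kcnip group had means of 0.08 TPM (Kcnip4) to 0.425 TPM (Kcnip3). The slow transient outward pore Kcna4 stood at 0.62 TPM in replicate 2 and 0.54 TPM in replicate 1. The transmembrane partners of Kcnd channels, Dpp6 and Dpp10, averaged 0.235 TPM and 0.005 TPM.

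The third highest member was Kcng2, a silent subunit that makes no channel alone and modifies other voltage-gated pores when assembled with them. It stood at 53.19 TPM in replicate 2 and 52.75 TPM in replicate 1 (mean 53.0 ± 0.311, SD, n = 2). Its place above Kcnj11 did not hold in replicate 2 by a separately deposited estimate, given below. The 279-base transcript Kcng2-202 held 12.35% of the gene's TPM in replicate 2 and 13.22% in replicate 1. This came from few counts, 38.6 in replicate 2 and 43.4 in replicate 1. The separate estimate gave Kcng2-202 0% in both. Kcng2 (ENSMUSG00000059852.7, chr18:80294546-80364254, minus strand) shares 9.10% of its exon bases with D330025C20Rik on the opposite strand. That gene held 240 counts in replicate 2 and 149 in replicate 1, and Kcng2 held 4167 in replicate 2 and 4300 in replicate 1. Of the 10 silent genes, Kcng2 and Kcnv2 were read in both libraries. Kcnv2 stood at 2.48 TPM in replicate 2 and 2.31 TPM in replicate 1. Kcns3 (mean 0.375 TPM) was next, and the remaining 7 had means of 0 to 0.025 TPM. Amigo1, a membrane protein that accompanies voltage-gated channels, averaged 6.73 TPM, and Vapa and Vapb, membrane proteins of the endoplasmic reticulum, averaged 27.8 TPM and 45.8 TPM.

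Among the other voltage-gated pores, Kcna5 is known as a carrier of a slowly inactivating delayed rectifier. Kcna5 stood at 4.59 TPM in replicate 2 and 5.27 TPM in replicate 1. Kcna5 was above Kcna4 by 8.50-fold (log2 3.09 ± 0.28, SD, n = 2). Kcna7 stood at 3.10 TPM in replicate 2 and 2.65 TPM in replicate 1. Of the other 6 Kcna genes, Kcna10 had no count and the rest had means of 0.14 TPM to 0.605 TPM. The cytosolic beta subunits Kcnab1 and Kcnab2, which bind Kcna channels, averaged 0.75 TPM and 1.27 TPM. The 4 Kcnc genes, known for fast-spiking neurons, had means of 0.11 TPM to 0.93 TPM.

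The delayed rectifiers that dominate repolarisation in larger mammals were read through their pores and hardly through their small auxiliary subunits. Kcnh2, pore of the rapid delayed rectifier, stood at 28.09 TPM in replicate 2 and 17.01 TPM in replicate 1 (mean 22.6 ± 7.83, SD, n = 2). Its best-known auxiliary partner Kcne2 had no count. Taking 3 counts per library as the limit, Kcnh2 was at least 480-fold above Kcne2 in replicate 2 and at least 308-fold above it in replicate 1. Kcnq1, pore of the slow delayed rectifier, stood at 13.56 TPM in replicate 2 and 10.77 TPM in replicate 1. Kcne1, its auxiliary subunit, stood at 1.17 TPM in replicate 2 and 0.94 TPM in replicate 1, from 65 counts in replicate 2 and 52 in replicate 1. Kcnq1 was 11.5-fold above Kcne1 (log2 3.53 ± 0.01, SD, n = 2) and below Kcnh2 in both libraries (log2 -0.86 ± 0.28). The remaining 7 Kcnh members had means of 0 to 0.08 TPM. Kcnq5, of the same subfamily as Kcnq1, averaged 0.28 TPM. The anchoring protein Akap9 averaged 16.9 TPM and the ubiquitin ligase Nedd4l 16.2 TPM, both known partners of Kcnq1.

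The inward rectifiers (Kcnj), which pass current more easily into the cell than out and hold the resting voltage, formed the largest subfamily sum. They reached 136.6 TPM in replicate 2 and 114.5 TPM in replicate 1 (mean 125.6 ± 15.6, SD, n = 2), and 7 of 15 were read in both libraries. Of the classical resting-voltage channels, Kcnj2 stood at 13.38 TPM in replicate 2 and 11.44 TPM in replicate 1. Kcnj12 stood at 9.55 TPM in replicate 2 and 8.04 TPM in replicate 1. Kcnj2 was above Kcnj12 by a log2 ratio of 0.50 ± 0.02. Kcnj14 (mean 1.51 TPM) and Kcnj4 (mean 0.41 TPM) were lower. Cav3 and Dlg1, scaffolds of these channels at the muscle membrane, averaged 27.2 TPM and 20.3 TPM. Kcnj16, 38.2 kb from Kcnj2 on chromosome 11, averaged 0.01 TPM.

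Kcnj3 and Kcnj5 form the channel that acetylcholine opens through G proteins to slow the heart, best known from atria and pacemaker tissue. Kcnj3 stood at 29.46 TPM in replicate 2 and 22.90 TPM in replicate 1. Kcnj5 stood at 23.13 TPM in replicate 2 and 18.78 TPM in replicate 1. Both genes were higher in replicate 2, and Kcnj3 was above Kcnj5 in both libraries (log2 0.32 ± 0.04, SD, n = 2). By scaled counts, replicate 2 was 1.14-fold replicate 1 for Kcnj3 and 1.18-fold for Kcnj5, smaller gaps than in TPM. The related Kcnj6 and Kcnj9 averaged 0.01 TPM and 0.015 TPM. Chrm2, the muscarinic receptor that opens this channel, stood at 33.44 TPM in replicate 2 and 29.54 TPM in replicate 1, and the adenosine receptor Adora1 at 4.48 TPM in replicate 2 and 3.01 TPM in replicate 1. All 4 atrial markers were also higher in replicate 2, as were all 5 heart muscle and all 3 ventricular markers. Of the 6 conduction markers, which summed to 16.4 TPM in replicate 2 and 13.5 TPM in replicate 1, 5 had 50 or more counts, and 3 of these were higher in replicate 2 and 2 in replicate 1. The part of these cells in the difference was not tested. Exons of Kcnj3 overlap those of Gm26794 on the opposite strand over 31.1% of their bases, and Gm26794 held 22 counts in replicate 2 and 8 in replicate 1.

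Kcnj11 and Kcnj8 are the pores of the ATP-sensitive channels, which open when cellular ATP falls. Kcnj11 stood at 49.92 TPM in replicate 2 and 45.52 TPM in replicate 1, and Kcnj8 at 8.49 TPM in replicate 2 and 5.64 TPM in replicate 1. Kcnj11 was 6.89-fold above Kcnj8 (log2 2.78 ± 0.32, SD, n = 2). The sulfonylurea receptors complete these channels and lie beside the pores in the genome, Abcc8 3.76 kb from Kcnj11 on chromosome 7 and Abcc9 16.2 kb from Kcnj8 on chromosome 6. Abcc9 stood at 93.27 TPM in replicate 2 and 82.39 TPM in replicate 1, and Abcc8 at 16.42 TPM in replicate 2 and 14.25 TPM in replicate 1. Within one neighbouring pair the pore gene was thus the higher (Kcnj11 with Abcc8), and within the other the receptor gene was (Abcc9 with Kcnj8). Kcnj8 is known from vascular mural cells, whose 7 markers summed to 170.9 TPM in replicate 2 and 182.4 TPM in replicate 1. Most of that sum was Rgs5, at 105.39 TPM in replicate 2 and 107.11 TPM in replicate 1. By scaled counts, 3 of the 7 markers were higher in replicate 2 and 4 in replicate 1. The part of mural cells in the Kcnj8 difference was not tested.

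Calcium-activated channels were read through the small-conductance genes. Kcnn1 stood at 5.15 TPM in replicate 2 and 4.72 TPM in replicate 1, and Kcnn2 at 5.24 TPM in replicate 2 and 3.86 TPM in replicate 1. Kcnn3 stood at 0.79 TPM in replicate 2 and 1.20 TPM in replicate 1. Kcnn2 was above Kcnn3 in both libraries by a log2 ratio of 2.21 ± 0.74. The large-conductance pore Kcnma1, prominent in smooth muscle, averaged 0.20 TPM and its subunit Kcnmb1 averaged 0.32 TPM. Kcnmb1 was the higher of these in both libraries, with a log2 ratio of Kcnma1 over Kcnmb1 of -0.88 ± 1.06 (SD, n = 2). By the second quantification, a separately deposited estimate, the ratio averaged 0.28, but its sign turned in replicate 1 only. By that estimate Kcnma1 stood at 0.21 TPM in replicate 2 and 0.63 TPM in replicate 1. Kcnmb1 stood at 0.298 TPM in replicate 2 and 0.303 TPM in replicate 1. The sodium-activated Kcnt2 averaged 1.04 TPM.

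**Figure D2:**
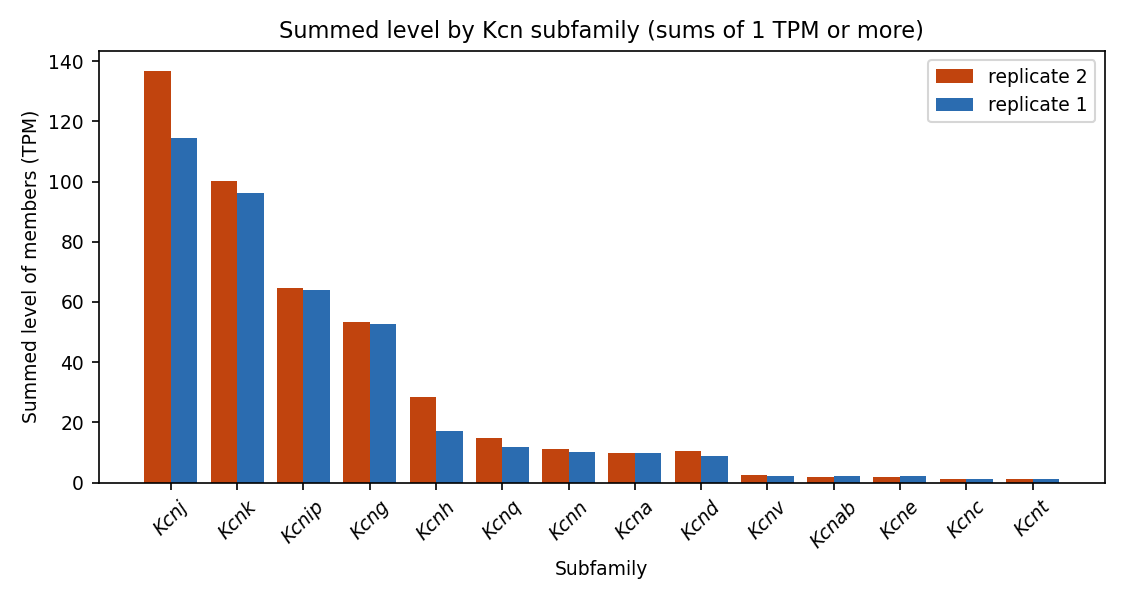
Summed TPM of the members of 14 subfamilies with a mean sum of 1 TPM or more, with a bar for replicate 2 left of a bar for replicate 1. Kcnj is highest at 136.6 TPM in replicate 2 and 114.5 TPM in replicate 1, followed by Kcnk at 100.1 TPM in replicate 2 and 96.2 TPM in replicate 1, and the Kcnh bars differ most in proportion among the 5 highest subfamilies.

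In the order of levels, 7 of 19 neighbouring pairs among the 20 read members had ranges over the animals that overlapped, so their order is not resolved. These were Kcnj3 with Kcnh2, Kcnh2 with Kcnj5, Kcnj2 with Kcnq1, Kcnj12 with Kcnj8, Kcnn1 with Kcna5, Kcna5 with Kcnn2, and Kcnn2 with Kcnd3. By the first quantification, the highest 4 kept the same order in both animals. By the second, Kcnj11 was above Kcng2 in replicate 2 (43.87 against 41.52 TPM) and below it in replicate 1 (41.90 against 43.38 TPM). The order of Kcng2 and Kcnj11 is therefore not resolved either. In 12 of 15 pairs of functionally related members listed for comparison the first gene was the higher in both libraries. Which gene came first was a choice made in listing the pairs, so this number only records the order. On expected counts it was 11, since Kcnd2 held 921 counts in replicate 2 and Kcnd3 925. Some of the sizes given above depended on the scale. With 1 TPM added to each level, the log2 ratio was 1.91 for Kcna5 over Kcna4, 5.60 for Kcnk3 over Kcnk2, 2.67 for Kcnq1 over Kcne1 and 1.47 for Kcnn2 over Kcnn3.

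The animals were then compared gene by gene, as a description, with counts scaled by TMM. Of 25 members with 200 or more summed counts, 0 differed by 2-fold or more with an exact counting interval that excluded equality, against 1.08% of 10960 mouse genes with as many counts. At 1.5-fold, 3 of the 25 members passed (Kcnab2, Kcnh2 and Kcnn3), against 3.53% of the same genes. Of these, 2 stood at the edge of a threshold. Kcnh2 passed at 1.5006-fold with TMM, and DESeq2 size factors moved every log2 ratio by -0.0135. Kcnab2 had 208 summed counts, against the minimum of 200. The interval alone excluded equality for 11 of 25 members (44.0%), 9 of them higher in replicate 2, against 18.1% of all those genes. The median absolute log2 ratio was 0.19 over these members and 0.11 over all genes with as many counts. Over the 43 members with 50 or more counts the median log2 ratio was 0.10, with 29 higher in replicate 2 and 14 higher in replicate 1, against a median of 0.01 over 13571 genes. These intervals cover counting error only, and 1 animal stands on each side.

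Kcnh2 had the highest ratio of these 25 genes. It held 3002 counts in replicate 2 and 2076 in replicate 1, a log2 ratio of 0.59 (exact counting interval 0.45 to 0.72). Kcnj8 followed with 658 counts in replicate 2 and 459 in replicate 1 (log2 0.57, interval 0.28 to 0.87), and Kcnd3 with 925 counts in replicate 2 and 699 in replicate 1 (log2 0.46, interval 0.22 to 0.70). In the other direction stood Kcnab2, with 70 counts in replicate 2 and 138 in replicate 1 (log2 -0.93, interval -1.66 to -0.23). Kcnn3 had 135 counts in replicate 2 and 228 in replicate 1 (log2 -0.70, interval -1.24 to -0.19). Below 200 counts, Kcnn4, a calcium-activated channel known from blood and immune cells, had 8 counts in replicate 2 and 31 in replicate 1. The 5 genes listed as lymphocyte markers summed to 2.68 TPM in replicate 2 and 5.41 TPM in replicate 1. Only 1 of these 5, Ptprc, was read in both libraries, at 1.21 TPM in replicate 2 and 3.03 TPM in replicate 1. Cd3g was nearly even, at 0.36 TPM in replicate 2 and 0.37 TPM in replicate 1. The 5 macrophage markers summed to 36.96 TPM in replicate 2 and 37.00 TPM in replicate 1, with 2 higher in replicate 2 and 3 in replicate 1. The even sum covers a difference in Adgre1, with 193 counts in replicate 2 and 512 in replicate 1 (log2 -1.35, interval -1.77 to -0.96). The intervals of Csf1r, C1qa, C1qb and Cd68 included equality. The 4 epicardial markers summed to 10.5 TPM in replicate 2 and 18.6 TPM in replicate 1, all 4 lower in replicate 2, as were all 4 red blood cell markers. Their part in the lower counts of Kcnab2, Kcnn3 and Kcnn4 was not tested. The 3 members highest by the first quantification differed little between the animals: the log2 ratio was 0.04 for Kcnk3, -0.01 for Kcnip2 and 0.01 for Kcng2.

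**Figure D3:**
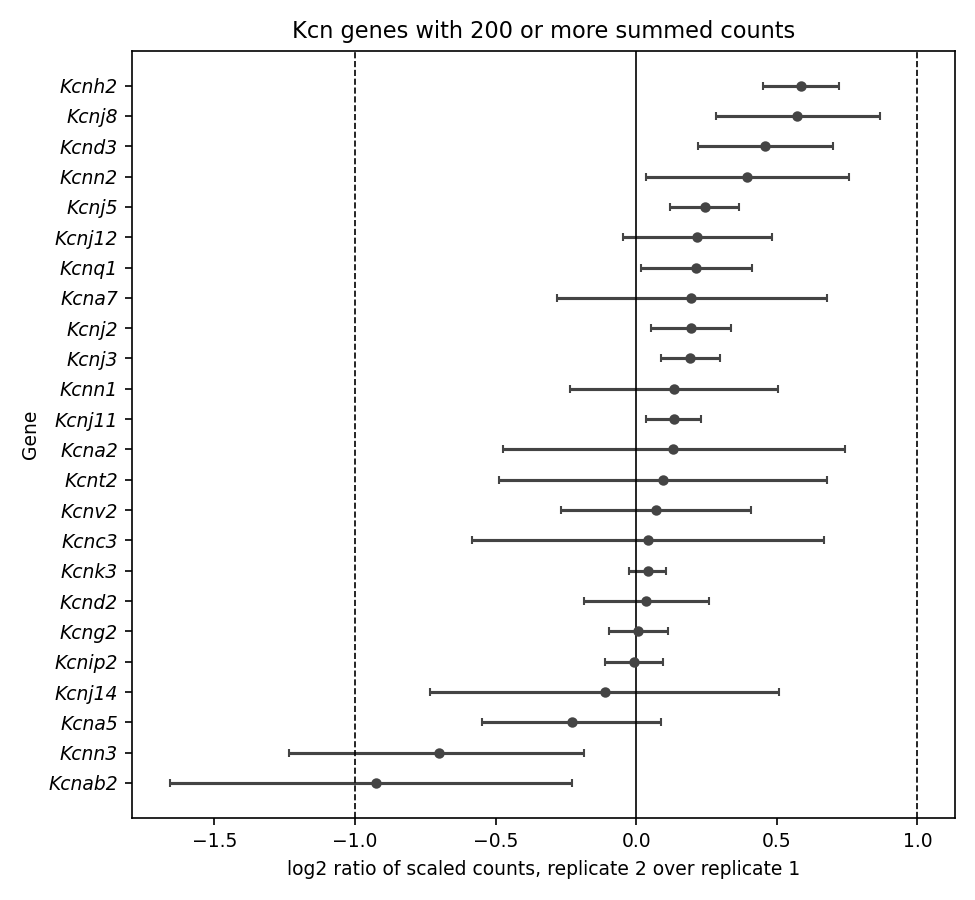
log2 ratio of scaled counts, replicate 2 over replicate 1, for 24 of the 25 Kcn genes with 200 or more summed counts, with bars for the exact counting interval and dashed lines at 2-fold. No point lies beyond a dashed line, Kcnh2 is the highest at 0.59 and Kcnab2 the lowest at -0.93.

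Of the 20 read members, 5 had a single annotated transcript and 15 had 2 or more. For all 15 the transcript with the highest share was protein-coding and the same in both animals, and for 11 it held over 50% of the gene's TPM in both. For 14 of 15 the second quantification gave the same leading transcript.

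Kcnh2 was split between transcripts that encode different starts of the channel. Kcnh2-201 held 44.6% in replicate 2 and 54.0% in replicate 1, and Kcnh2-202 held 43.4% in replicate 2 and 40.4% in replicate 1. The short processed transcript Kcnh2-204 held 9.30% in replicate 2 and 1.56% in replicate 1, which adds to the TPM of the gene from few counts (55.0 in replicate 2 and 5.91 in replicate 1). The second quantification gave Kcnh2-204 0% in both. The starts of the coding sequences of the 2 main transcripts are shown because they differ after the start codon, in capitals.
Kcnh2-201: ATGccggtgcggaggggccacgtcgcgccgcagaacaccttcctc
Kcnh2-202: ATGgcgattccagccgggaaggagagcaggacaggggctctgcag

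The Kcnh2-201 start lies at chr5:24351239-24351283 and the Kcnh2-202 start at chr5:24329228-24329272, both on the minus strand of mm10. The coding sequence has 3489 bases in Kcnh2-201 and 2463 in Kcnh2-202. They share 2355 coding bases, which include the selectivity filter shown above, and the other 108 coding bases of Kcnh2-202 lie outside the coding sequence of Kcnh2-201. The long form begins with a cytoplasmic domain that slows closing of the channel, and the short form, with its own start, lacks it and closes faster, as known from work on mouse and human channels.

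Kcnip2-202 held 60.7% in replicate 2 and 57.3% in replicate 1, and Kcnip2-209 held 24.1% in replicate 2 and 26.8% in replicate 1. Their coding sequences begin alike and differ by 54 bases that Kcnip2-209 has in addition. Kcnj3-201 held 75.9% in replicate 2 and 93.1% in replicate 1, and Kcnj3-203 held 15.2% in replicate 2 and 4.33% in replicate 1. The coding sequence of Kcnj3-201 and Kcnj3-203 is the same 1506 bases, so these transcripts differ in untranslated parts. Kcnj3-202, also protein-coding, held 8.95% in replicate 2 and 2.57% in replicate 1, and its coding sequence was not compared. By the second quantification Kcnj3-201 averaged 58.5% and Kcnj3-203 40.2%. There Kcnj3-201 held 55.9% in replicate 2 and 61.0% in replicate 1, and Kcnj3-203 held 41.9% in replicate 2 and 38.5% in replicate 1.

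**Figure D4:**
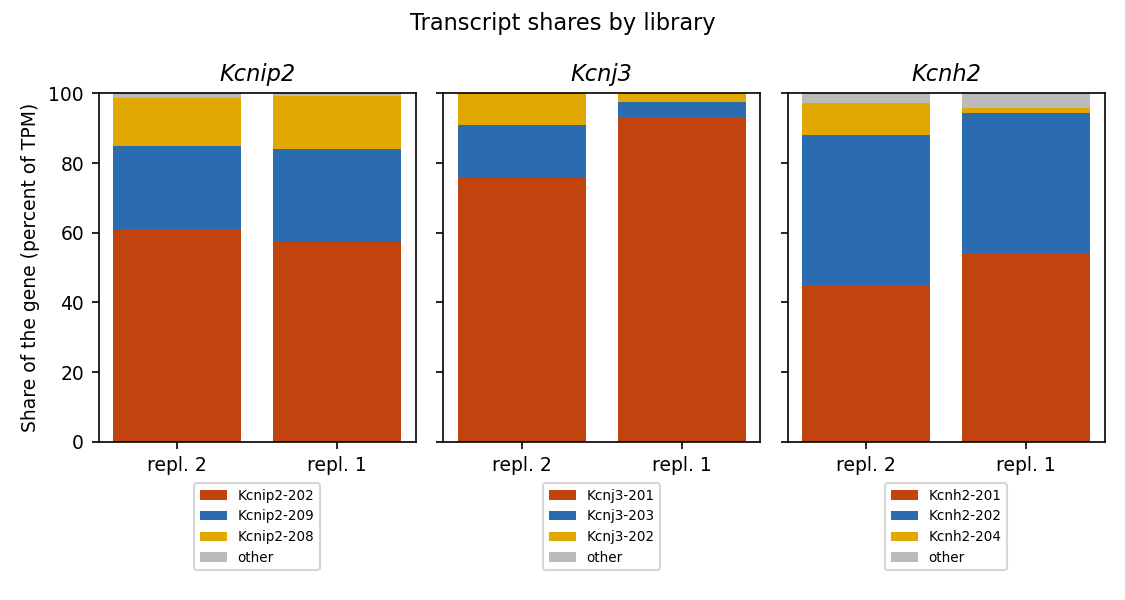
Percent of each gene's TPM held by its 3 leading transcripts and by all others, for Kcnip2, Kcnj3 and Kcnh2, with replicate 2 left of replicate 1 in each panel. Shares are those of the first quantification. Kcnh2 is divided between Kcnh2-201 and Kcnh2-202 in both animals, and the share of Kcnj3-201 is 75.9% in replicate 2 and 93.1% in replicate 1.

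Of 20 partner genes listed for these channels, 14 were read in both libraries, and their sum was 345.6 TPM in replicate 2 and 318.8 TPM in replicate 1. The 6 not read were Dpp6, Dpp10 and the 4 gamma subunits of large-conductance channels (Lrrc26, Lrrc38, Lrrc52 and Lrrc55). Rgs4 and Rgs6, which speed the shut-off of acetylcholine-gated channels, averaged 3.74 TPM and 3.16 TPM.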

How the data were processed

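Per library, the authors deposited gene and transcript tables with expected counts and TPM in the column layout of RSEM, per the file headers. The transcript tables also give each transcript's percent share of its gene, as deposited. A further transcript table has estimated counts and TPM in the layout of kallisto, per the file headers, and is called the second quantification. The deposited FPKM values were not used. The assembly is mm10 and the annotation GENCODE M21, per the deposited file listings. For tool versions, the aligner and the strand setting of counting: not given in the sources used here. Per the labels, the kit kept strand, ribosomal RNA was reduced and ERCC spike-in RNA was added. Reads of the CAST allele that failed to match mm10 were not analysed here.

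Expected counts were rounded and scaled with TMM (edgeR 4.0.16). A call between animals needed 200 summed counts, 2-fold and an exact Clopper-Pearson 99.9% interval that excluded equality. It describes these 2 libraries and is no test. The calls were tested on simulated counts. A first version of that test missed its limits for the genes given the largest fold: direction and fold were confounded, some genes fell under the count minimum, and the median missed its tolerance. The simulation and its tolerance were then revised, with the same seed and the calculation unchanged, and the revised test passed. DESeq2 1.42.0 size factors and spike-in totals served as alternatives. The count limit of 0 was 3 counts. Members at 1 TPM or more in both libraries are named, with values per library for those in the listed pairs and currents. A few items are not reported here. Members, gene lists and pairs were chosen with earlier results of these data known.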

Additional observations from a re-analysis of the deposited data

How the results depend on the processing

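Of the results that describe the family as a whole, 25 of the recomputed values stayed within the spread or within 1.5 times the reported count, and 6 moved further. For the median log2 ratio between the animals, 0.095, the spread was the SD over members, 0.396. That spread is wider than the median itself, so it says little that recomputed medians of 0.047 to 0.143 stayed within it. The number of members read in both libraries, 20 at 1 TPM, was 33 at 0.5 TPM, 34 when TPM was rescaled to nuclear protein-coding genes and 47 at 10 or more expected counts. That rescaling raised the summed level to 1191 TPM, because all levels were multiplied by 2.73 in replicate 2 and 2.79 in replicate 1. The count of members that differed between the animals was 1 without a minimum of counts (Kcnn4, against 1.99% of 23657 genes) and 3 at 1.5-fold (against 3.53% of 10960 genes). It remained 0 with DESeq2 size factors, spike-in totals, the second quantification and 50 or more summed counts. Leaving out each replicate gave 23 and 23 members read, sums of 409.7 to 453.6 TPM, 12 and 12 pairs, and 14 to 15 leading transcripts. Among levels of single members and ratios of pairs, 102 recomputed values stayed within the spread, 47 moved beyond it (20 with nuclear rescaling, 13 with the second quantification, 8 on expected counts and 6 with 1 TPM added) and 1 reversed. With 2 libraries, leaving 1 out always gives a sum, level or log2 ratio within the SD. Those values, counted among the ones that stayed, could not have moved and do not show stability. On expected counts, where longer genes collect more reads, the log2 ratio was 2.22 for Kcnip2 over Kcnd2, 2.42 for Kcnip2 over Kcnd3, 1.78 for Kcnj2 over Kcnj12, 1.01 for Kcnn2 over Kcnn3 and 4.32 for Kcnq1 over Kcne1. That of Kcnma1 over Kcnmb1 averaged 0.28 by the second quantification, where the sign turned in replicate 1 only. It was -0.14 with 1 TPM added, and -1.63 to -0.14 with each replicate left out, and the cause was not tested. Spike-in totals moved every log2 ratio between the animals by -0.05. Mean levels of the 20 read members over both libraries differed by at most 1.248-fold between quantifications. The gap in a single library could be wider: in replicate 2, Kcng2 stood at 53.19 TPM by the first and 41.52 TPM by the second. No paired analysis was possible because there is a single group. The study holds 2 libraries, so the SD of any level rests on 2 values, and members with few counts are limited by depth.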

Other observations

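Of the Kcn genes named in the annotation, 5 had no protein-coding transcript and were not members. Kcnq1ot1, the long RNA transcribed antisense within Kcnq1 and known for imprinting of that region, held 572 counts in replicate 2 and 718 counts in replicate 1. Spread over its length this was 0.19 TPM in replicate 2 and 0.22 TPM in replicate 1. Its exons cover 2.96% of the exon bases of Kcnq1, on the opposite strand. Kcnd3os, which overlaps 1.72% of the exon bases of Kcnd3, held 9 counts in replicate 2 and 15 in replicate 1. Kcnab3os, Kcnmb4os1 and Kcnmb4os2 had no count in either library.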
